A study of Mus musculus with 35 samples.

Results

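The CCN matricellular family was taken as the 5 family genes that the count table carries with readable signal under their older symbols: *Cyr61* (Ccn1), *Ctgf* (Ccn2), *Nov* (Ccn3), *Wisp1* (Ccn4) and *Wisp2* (Ccn5). They were chosen by name, as 5 of 53465 genes in the table, and all 5 passed the filter on low counts that 17547 genes passed. The remaining family gene, *Wisp3* (Ccn6), had 0 to 3 counts in a library and was not described further. Expression was measured in 35 RNA-seq libraries of mouse pancreatic ductal adenocarcinoma cells sorted from tumors in the pancreas, the liver or the lungs.

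The cells came from KC-shSmad4 animals, in which Ptf1a-Cre, active in the pancreatic lineage, turns on the reporter mKate2, and doxycycline (Dox) turns on a GFP-linked hairpin against *Smad4* placed in the Col1a1 locus. All groups therefore carried alleles of the same design, but the study made such animals with either of 2 independent hairpins. It also describes spontaneous loss of *Cdkn2a/b* in most lines from such tumors. The labels do not say which or how many lines were used, so the hairpin of each library is not known here. The hosts were athymic nude mice, 6 to 8 weeks of age, which lack mature T cells. The organs differed in more than site, since 100000 cells were placed in the pancreas, 400000 reached the liver by way of the spleen and 250000 reached the lungs by the tail vein, and Dox was withdrawn at week 4, 5 and 6, so that organ, route, cell number and tumor age cannot be told apart. Tumor cells were sorted on mKate2 at day 7 or day 14. The groups labelled Smad4 off (Dox kept) and Smad4 on (Dox withdrawn) held 3 and 2 pancreas, 2 and 3 liver, and 4 and 2 lung libraries at day 7. At day 14 they held 2 and 3 pancreas, 3 and 3 liver, and 4 and 4 lung libraries.

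CCN proteins are secreted, cysteine-rich proteins that sit in the extracellular matrix and work less as scaffold than as signals, by binding integrins, LRP receptors, proteoglycans and growth factors. A full-length member strings together an insulin-like growth factor binding domain, a von Willebrand factor type C domain, a thrombospondin type 1 repeat and a cysteine-knot C-terminal domain; Wisp2 lacks the last. *Cyr61* and *Ctgf* are immediate targets of YAP and TAZ acting through TEAD factors, and *Ctgf* is also a target of TGFβ and SMAD signaling and of serum response factor; *Wisp1* was found as a gene induced by Wnt1, and *Nov* is known for slowing growth in several cell types.

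In the mouse genome (GRCm38), each member has 5 exons in its coding transcript. *Cyr61* (ENSMUSG00000028195) lies on the minus strand at chr3:145646976-145649981 and encodes 379 codons, and *Ctgf* (ENSMUSG00000019997) lies on the plus strand at chr10:24595442-24598683 and encodes 348. *Nov* (ENSMUSG00000037362; chr15:54745702-54754039, plus strand, 354 codons) and *Wisp1* (ENSMUSG00000005124; chr15:66891320-66923201, plus strand, 367 codons) share a chromosome. *Wisp2* (ENSMUSG00000027656; chr2:163820861-163833146, plus strand) is the shortest, with 251 codons. The antisense gene *Gm15270* overlaps 1667 bases of *Ctgf*, and the strand setting of the counting was not given in the sources used here, but *Gm15270* held 2 to 45 counts in a library against 3805 to 25524 for *Ctgf*.

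A RefSeq promoter window (GRCm38.p6, 250 bases before to 50 bases after the start) was at hand for 1 of the 5 members, *Cyr61*, listed there as Ccn1. It is shown because *Cyr61* is the most highly expressed member and a standard readout of TEAD factors; the capitals mark CATTCC, the core that TEAD factors bind, at bases 148 to 153 of the window. The window is chr3:145649936-145650235, printed on the minus strand, 5′ to 3′.
Ccn1: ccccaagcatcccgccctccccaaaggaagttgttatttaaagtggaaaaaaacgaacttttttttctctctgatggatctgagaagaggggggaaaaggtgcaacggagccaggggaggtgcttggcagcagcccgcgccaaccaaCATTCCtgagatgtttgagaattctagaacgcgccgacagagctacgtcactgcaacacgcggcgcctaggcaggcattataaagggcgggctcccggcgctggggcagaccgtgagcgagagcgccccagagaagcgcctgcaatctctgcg
The letters CATTCC, searched on both strands, were found in 14.7% of 32851 promoters of the same length. The window also held ACGTCA (the core of the cAMP response element) at bases 192 to 197, found in 7.51% of promoters, TATAAA at bases 226 to 231, found in 13.6%, and the SMAD-binding letters CAGAC at bases 254 to 258, found in 49.6%. Neither the AP-1 letters TGANTCA (7.81% of promoters) nor the CArG box of serum response factor (1.63%) was in the window. Its GC content was 57.0%, against a median of 52.7% over all promoters.

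Libraries held 11885461 to 43571007 counts (median 19415320), so that 3 counts, taken as the floor, stood at 0.0684 to 0.239 CPM (counts scaled by library size with TMM). *Smad4* itself went against the labels: it measured 69.9 to 143 CPM in the 18 libraries labelled off (median 103) and 14.8 to 22.4 CPM in the 17 labelled on (median 17.7), with no overlap. Every direction below is therefore that of the labels as deposited, libraries labelled on against libraries labelled off; whether the labels are exchanged was not settled here, and an exchange would turn the sign of every label difference. One library labelled off, from the liver at day 7 (replicate 2), was labelled paired-end and stood apart. It had the highest summed level of 10 fibroblast and stellate cell markers (36478 CPM, against a median of 1066 over all libraries). Its *Epcam* stood at 54.6 CPM, against 282 CPM in the other library of its group. Hepatocyte markers summed to 1.45 and 16.5 CPM in that group. Because *Alb* alone stood at 1.64 CPM in replicate 1, the lower sum was that of the paired-end library. In the pancreas labelled off this sum was 1.39 to 2.41 CPM. The group's acinar sums were 4.88 and 313 CPM. Whether the organ label of the paired-end library is right was not tested. Results of the 5 members that rest on it are given with and without it. Markers of tumor epithelium summed to 2549 to 16476 CPM, and those of hepatocytes, lung epithelium, leukocytes and endothelium reached at most 140, 499, 348 and 93.0 CPM. Acinar, mesothelial and smooth muscle markers reached 2769, 1619 and 1206 CPM. The mesothelial maximum, in liver replicate 1 of day 14 labelled off, was nearly all *Msln* (1618.5 CPM). Whether it came from mesothelial cells was not tested. Fibroblast markers were present throughout (164 to 36478 CPM, none of the 10 at 0 in any library) and, apart from that library, were higher in the pancreas than elsewhere, and they are given beside the results they move with.

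The 5 members fell into 2 tiers. Per kilobase of exon, *Cyr61* (median 485 CPM per kb) exceeded 99.6% of the 17547 genes and *Ctgf* (189 CPM per kb) exceeded 98.7%. *Wisp2* (5.51 CPM per kb), *Nov* (4.32 CPM per kb) and *Wisp1* (3.54 CPM per kb) stood near the middle, above 60.6%, 55.7% and 52.2% of genes.

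The highest members were also the steadiest. *Cyr61* spanned 403 to 1735 CPM over the 35 libraries and *Ctgf* 142 to 1198 CPM. The lower members moved over a far wider range: *Nov* from 0.870 to 106 CPM, *Wisp1* from 1.10 to 192 CPM and *Wisp2* from 0.870 to 104 CPM. The spread between libraries of one group, as an SD of log2 CPM, was 0.45 for *Cyr61*, 0.58 for *Ctgf*, 0.87 for *Nov*, 1.03 for *Wisp1* and 1.22 for *Wisp2*, against a median of 0.32 over all genes. *Wisp2* was thus more variable within groups than 98.5% of genes and *Cyr61* more than 72.2%.

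**Figure D1:**
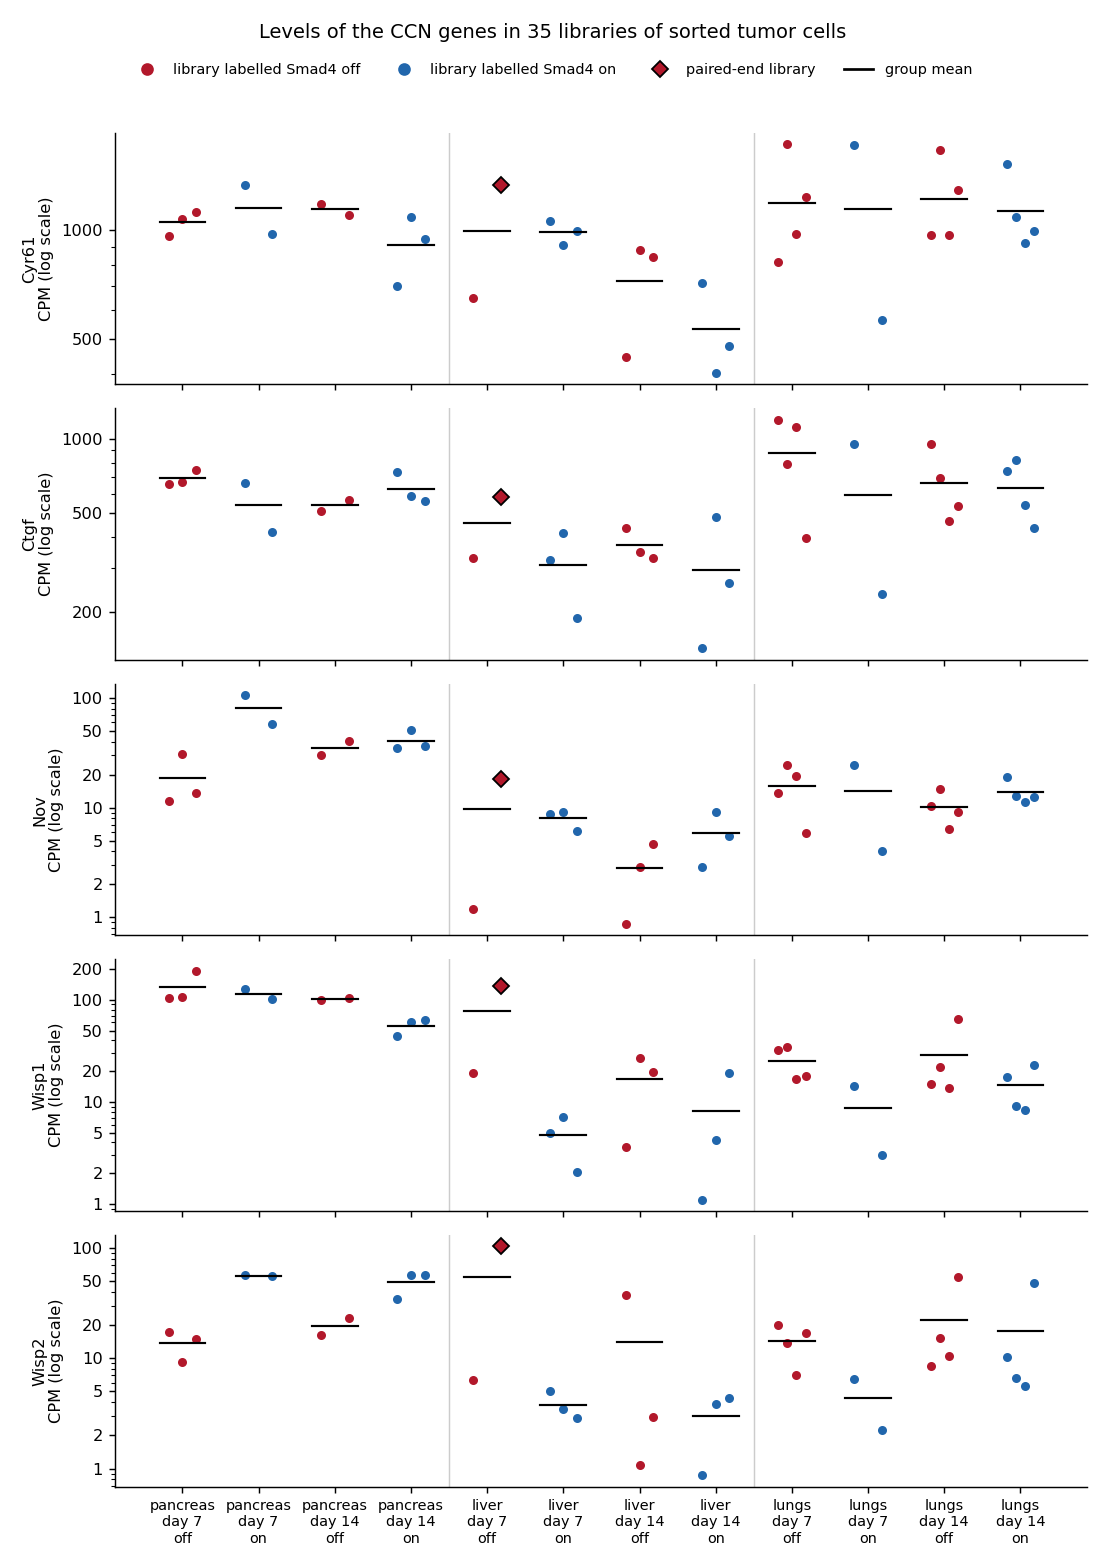
Level of each CCN member in the 35 libraries, in CPM on a log axis, by organ, day and label; each point is a library and each bar the group mean. *Cyr61* and *Ctgf* form narrow bands between 142 and 1735 CPM, whereas *Nov*, *Wisp1* and *Wisp2* spread from about 1 to over 100 CPM and are mostly higher in the pancreas, with the paired-end liver library far from its group for *Wisp1* (135 CPM) and *Wisp2* (104 CPM).

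The first comparison asked how each member differed between libraries labelled on and off within an organ and day. Calls were made by edgeR's quasi-likelihood test over all genes and needed more than a 2-fold difference with an adjusted p (Benjamini-Hochberg) below 0.05. In the pancreas at day 7, *Wisp2* was the 1 member of 5 called (1.33% of 14439 genes were called). *Wisp2* measured 17.4, 9.19 and 15.0 CPM in the libraries labelled off and 56.5 and 55.9 CPM in those labelled on. Both libraries labelled on were far above all 3 labelled off. The log2 difference was 2.03 ± 0.26 (SE, n = 2 and 3; edgeR adjusted p = 0.0306), a fold of 4.08. The call was lost without replicate 3 labelled off (log2 2.08, adjusted p = 0.106), replicate 1 labelled on (2.01, adjusted p = 0.144) or replicate 2 labelled on (2.04, adjusted p = 0.105), and in a single edgeR fit of all 12 groups (2.02, adjusted p = 0.503); the summed fibroblast markers were also higher in the libraries labelled on (24642 and 25803 CPM, against 12656 to 17336 CPM). The 5 acinar markers (618 and 836 CPM, against 1715 to 2738 CPM) and the 6 smooth muscle and pericyte markers (437 and 776 CPM, against 882 to 1206 CPM) were lower in them, with none of these genes at 0 in any of the 5 libraries. The part of these markers in the result was not tested. In bulk libraries such as these, fewer cells of a type and less RNA per cell cannot be told apart.

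*Nov* showed the same order in the pancreas at day 7. It measured 11.5, 31.2 and 13.6 CPM labelled off and 106 and 57.6 CPM labelled on, so that the groups did not overlap. Its log2 difference of 2.14 ± 0.50 (SE) was as large as that of *Wisp2* but did not pass the threshold with edgeR (adjusted p = 0.0933; DESeq2 2.13, adjusted p = 0.0153, where DESeq2 called 3.58% of genes). Without replicate 2 labelled off, the library with 31.2 CPM, *Nov* was called (2.71, edgeR adjusted p = 0.0391). *Wisp1* measured 103, 107 and 192 CPM labelled off and 127 and 102 CPM labelled on, which overlapped (−0.21, adjusted p = 0.722), and neither *Cyr61* (0.15, adjusted p = 0.642) nor *Ctgf* (−0.35, adjusted p = 0.356) passed the test.

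In the pancreas at day 14, *Wisp2* was again the 1 member called (4.64% of genes). It measured 16.2 and 23.1 CPM labelled off and 34.8, 57.4 and 56.7 CPM labelled on, again without overlap. The log2 difference was 1.35 ± 0.29 (SE, n = 3 and 2; edgeR adjusted p = 0.0410). The call was lost without either library labelled off (1.10 and 1.64, adjusted p = 0.209 and 0.112) and without replicate 2 or 3 labelled on (1.22 and 1.23, adjusted p = 0.0939 and 0.0843). It was also lost in the single edgeR fit of 12 groups (1.33, adjusted p = 0.844). *Wisp1* moved the other way at day 14, from 100.4 and 104 CPM labelled off to 43.9, 60.1 and 62.9 CPM labelled on. Every library labelled on was below both labelled off, and the difference of −0.85 ± 0.15 (edgeR adjusted p = 0.0135) passed the p threshold but not the fold of 2. The adjusted p rose to 0.105 and 0.128 without either library labelled off. *Nov* overlapped at day 14, with 30.5 and 40.2 CPM labelled off and 34.8, 50.6 and 36.6 CPM labelled on (0.22, adjusted p = 0.523). Summed fibroblast markers overlapped here as well (12558 and 13272 CPM labelled off, 9388 to 18525 CPM labelled on). The 6 smooth muscle and pericyte markers did not, with sums of 953 and 1090 CPM labelled off and 227 to 461 CPM labelled on; that list holds *Acta2*, and its part in the differences of *Wisp1* and *Wisp2* was not tested.

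In the liver at day 7 no member was called by edgeR (0.444% of genes were), and the 2 largest label differences of any member were much smaller without the paired-end library. *Wisp1* measured 19.1 and 135 CPM labelled off, the second value being the paired-end library, and 4.93, 7.10 and 2.07 CPM labelled on. *Wisp2* measured 6.34 and 104 CPM labelled off and 5.03, 3.50 and 2.88 CPM labelled on. For both genes the libraries labelled on were below both labelled off, but only narrowly so for *Wisp2* once the paired-end library was set aside. The differences were −4.10 ± 0.94 for *Wisp1* (edgeR adjusted p = 0.0820) and −3.91 ± 1.09 for *Wisp2* (adjusted p = 0.103). DESeq2 called both (adjusted p = 8.03e-05 and 0.00115; 17.8% of genes were called), as did the single edgeR fit of 12 groups (adjusted p = 0.00240 and 0.0134; 17.6% of genes). Without the paired-end library, which leaves 1 library labelled off that is assumed to vary like the others, the differences were −2.11 (adjusted p = 0.117) and −0.83 (adjusted p = 0.292). Without the other library labelled off, replicate 1, the paired-end library was the only one labelled off and was assumed to vary like the others; edgeR then gave −4.87 (adjusted p = 0.00692) and −4.78 (adjusted p = 0.00226), in a fit that called 19.8% of genes. *Nov* measured 1.19 and 18.5 CPM labelled off and 8.79, 9.22 and 6.11 CPM labelled on, so that its direction was set by the paired-end library: −0.35 with it and 2.66 without it (edgeR adjusted p = 0.871 and 0.0485). The fibroblast marker sum separated these same 2 libraries labelled off (336 and 36478 CPM, against 489 to 1507 CPM labelled on), and its part in the result was not tested.

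In the liver at day 14 no member and no gene was called by edgeR (9.68% of 14947 genes, 1447, had an unadjusted p under 0.05; DESeq2 called 332 genes, 2.22%, and no member). *Wisp1* measured 3.60, 26.9 and 19.6 CPM labelled off and 1.10, 4.20 and 19.2 CPM labelled on, which overlapped (−1.04, adjusted p = 0.815). *Wisp2* measured 37.9, 1.07 and 2.93 CPM labelled off and 0.870, 3.84 and 4.33 CPM labelled on; its difference of −2.30 (adjusted p = 0.643) came from the library at 37.9 CPM, replicate 1, and was 0.57 without it. *Nov* measured 0.870, 2.86 and 4.71 CPM labelled off and 2.90, 9.11 and 5.50 CPM labelled on (1.05, 95% interval −0.58 to 2.67).

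The lungs gave no call among the members on either day. At day 7 edgeR called no gene (793 of 15193 genes, 5.22%, had an unadjusted p under 0.05; DESeq2 called 100, 0.658%, and no member). *Wisp1* measured 32.5, 34.6, 16.6 and 17.8 CPM labelled off and 14.4 and 3.03 CPM labelled on. *Wisp2* measured 19.9, 13.9, 7.10 and 17.1 CPM labelled off and 6.45 and 2.23 CPM labelled on. Both were lower in each library labelled on than in any labelled off, with differences of −1.55 ± 0.63 and −1.75 ± 0.58 that did not pass adjustment (edgeR adjusted p = 0.956 and 0.908). Summed fibroblast markers had the same order (429 to 2033 CPM labelled off, 164 and 418 CPM labelled on), and their part was not tested. At day 14, 0.0271% of genes were called. *Wisp1* measured 14.8, 22.1, 13.6 and 64.8 CPM labelled off and 17.7, 9.16, 8.41 and 23.0 CPM labelled on (95% interval −2.28 to 0.28, adjusted p = 0.621). *Wisp2* held 1 high library under each label, 54.8 CPM off and 47.8 CPM on, among others of 5.61 to 15.2 CPM (−0.35, adjusted p = 0.960).

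*Cyr61* and *Ctgf* passed the test in none of the 6 comparisons. *Cyr61* differences lay between −0.47 (liver, day 14) and 0.15 (pancreas, day 7), and those of *Ctgf* between −0.63 (liver, day 7) and 0.24 (pancreas, day 14). The intervals allow more in some groups than in others: for *Cyr61* the 95% interval ran from −0.25 to 0.54 in the pancreas at day 7 and from −1.25 to 1.12 in the lungs at day 7.

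**Figure D2:**
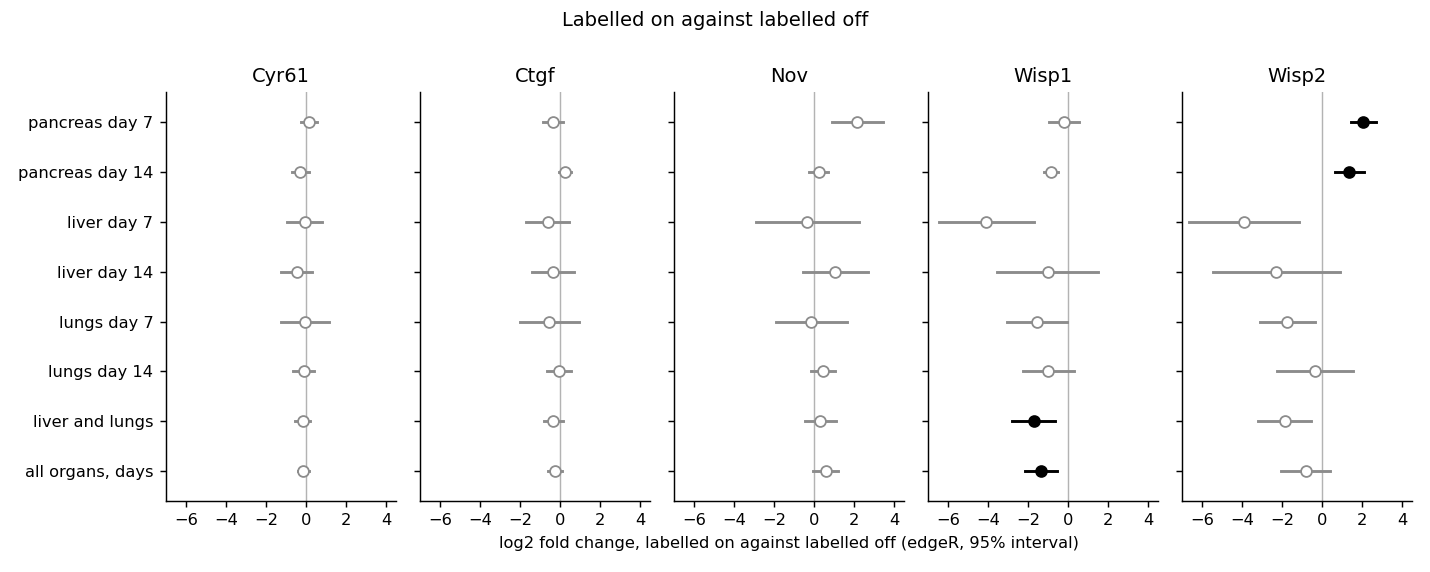
Log2 fold change of each member, labelled on against labelled off, for the 6 organ and day comparisons and the 2 pooled ones; points are edgeR estimates, lines 95% intervals, and filled points passed both thresholds. Estimates of *Wisp2* lie above 0 in the pancreas (2.03 and 1.35) and below 0 in the liver and lungs, those of *Wisp1* lie below 0 throughout, and those of *Cyr61* and *Ctgf* lie between −0.63 and 0.24.

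Since the estimate for *Wisp1* was below 0 in each of the 6 comparisons (in the pancreas at day 7 it was 0.13 with the replicate number as a block), the label was also tested over organs with organ and day as terms, a comparison chosen after seeing these estimates and made on the same libraries, which restates their shared sign and is not independent evidence of it. Over all 35 libraries *Wisp1* was the 1 member called (4.5% of genes), at −1.36 ± 0.39 (SE; edgeR adjusted p = 0.0116). Without the paired-end library it was −1.05 (edgeR adjusted p = 0.0162; 3.42% of genes), and DESeq2 gave an adjusted p of 0.00123 (4.79% of genes). *Nov* (0.57, adjusted p = 0.174) and *Wisp2* (−0.84, adjusted p = 0.327) were not called. Over the 25 libraries of liver and lungs alone, *Wisp1* was at −1.73 ± 0.52 (adjusted p = 0.0326; 4.03% of genes were called) and *Wisp2* at −1.87 ± 0.64 (adjusted p = 0.0565). There the *Wisp1* call was lost without the paired-end library (−1.30, adjusted p = 0.0570).

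Whether the response of *Wisp1* and *Wisp2* to the label differed between organs was tested directly, by the interaction of organ and label. No member was called by edgeR in any of the 6 interactions. For *Wisp2* at day 7, the difference of response between pancreas and liver was 5.87 ± 1.21 (edgeR adjusted p = 0.0646; 0.814% of genes were called), and DESeq2 called it (5.89, adjusted p = 2.71e-05; 8.93% of genes). Leaving out either liver library labelled off leaves a lone one, assumed to vary like the other groups. Without the paired-end library the *Wisp2* difference was 2.75 and was called by edgeR (adjusted p = 0.0384; 1.29% of genes). Without replicate 1, which leaves the paired-end library alone, it was 6.78 (adjusted p = 0.000152), with *Wisp1* at 4.61 (adjusted p = 0.00203) and *Nov* at 3.32 (adjusted p = 0.0100), in a fit that called 18.7% of genes. Between pancreas and lungs at day 7, *Wisp2* differed in response by 3.79 ± 0.69 (unadjusted p = 0.000259 from edgeR, adjusted p = 0.259), in a comparison where edgeR called no gene, 1672 had an unadjusted p under 0.05, and DESeq2 called 191 (1.2%) with *Wisp2* among them (adjusted p = 7.04e-05). Without replicate 1 of the lungs labelled on, which leaves 1 such library, edgeR called it (4.70, adjusted p = 0.0310; 1.23% of genes). *Wisp1* at day 7 gave 3.81 between pancreas and liver (edgeR adjusted p = 0.103; 1.79 without the paired-end library, adjusted p = 0.208) and 1.35 between pancreas and lungs (adjusted p = 0.560). The responses in liver and lungs differed by −2.48 for *Wisp1* (adjusted p = 0.235) and −2.09 for *Wisp2* (adjusted p = 0.359) at day 7, where 1.86% of genes were called; without liver replicate 1 labelled off, which again leaves the paired-end library alone, *Wisp2* was at −2.98 (adjusted p = 0.0296; 13% of genes were called). At day 14 edgeR called no gene in any of the 3 interactions (478 genes between liver and lungs, 701 between pancreas and liver and 1179 between pancreas and lungs had an unadjusted p under 0.05; DESeq2 called 4, 40 and 111, and no member). For *Wisp2* the day 14 difference between pancreas and liver was 3.64 ± 1.65, with a 95% interval of −0.05 to 7.33, and it was 0.72 at its lowest as each library was left out.

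Outside the alternative fits, the largest differences that edgeR called were between organs within one label. Among libraries labelled on, *Nov*, *Wisp1* and *Wisp2* were all called lower in the liver than in the pancreas, 3 of 5 members (22.1% of genes were called, 11.3% lower). *Nov* measured 34.8 to 106 CPM in the pancreas (median 50.6, n = 5) and 2.90 to 9.22 CPM in the liver (median 7.45, n = 6). *Wisp2* measured 34.8 to 57.4 CPM in the pancreas (median 56.5) and 0.870 to 5.03 CPM in the liver (median 3.67). *Wisp1* measured 43.9 to 127 CPM in the pancreas (median 62.9) and 1.10 to 19.2 CPM in the liver (median 4.56). For all 3 genes the lowest pancreas library lay above the highest liver library. The log2 differences were −3.08 ± 0.39 for *Nov* (edgeR adjusted p = 1.57e-05), −3.70 ± 0.65 for *Wisp1* (adjusted p = 0.000257) and −3.92 ± 0.65 for *Wisp2* (adjusted p = 0.000158), and each remained called as each of the 17 libraries was left out. *Ctgf* was at −0.99 (adjusted p = 0.0277), just under the fold, and was over it, at −1.01 to −1.21, without pancreas replicate 2 of day 7 or replicate 2 or 3 of day 14, liver replicate 1 or 2 of day 7 or replicate 2 of day 14, or lung replicate 2 of day 7, and *Cyr61* was at −0.53.

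Against the pancreas, the same 3 members were called lower in the lungs among libraries labelled on (13.4% of genes were called, 6.98% lower). *Wisp1* measured 3.03 to 23.0 CPM in the lungs (median 11.8, n = 6), below all pancreas libraries, at −2.73 ± 0.64 (edgeR adjusted p = 0.00498). *Nov* measured 4.02 to 24.5 CPM (median 12.6), also without overlap, at −1.93 ± 0.38 (adjusted p = 0.00152). *Wisp2* measured 2.23 to 47.8 CPM (median 6.53), and 1 lung library at 47.8 CPM overlapped the pancreas; it was called at −2.11 ± 0.62 (adjusted p = 0.0190), a call lost with no filter on low counts (−2.12, adjusted p = 0.0637). Between liver and lungs labelled on, *Ctgf* (−1.04 ± 0.33, adjusted p = 0.0355) and *Nov* (−1.14 ± 0.37, adjusted p = 0.0372) were called lower in the liver, where 10.4% of genes were called, 5.09% lower. *Ctgf* measured 142 to 483 CPM in the liver (median 292) and 235 to 954 CPM in the lungs (median 642), and both genes overlapped between the organs. Neither call was firm: *Ctgf* reached an adjusted p of 0.145 (−0.76) and *Nov* of 0.117 (−0.96) without lung replicate 1 of day 7. Both calls were also lost without liver replicate 1 or 3 of either day or lung replicate 1 or 2 of day 14, and *Nov* alone without liver replicate 2 of day 7 or lung replicate 4 of day 14 (adjusted p of 0.0506 to 0.0788 over these libraries). *Wisp1* was called without liver replicate 3 of day 14 (−1.92, adjusted p = 0.0203), and *Wisp2* without lung replicate 2 of day 7 (−2.18, adjusted p = 0.0216) or lung replicate 3 of day 14 (−1.95, adjusted p = 0.0475).

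Among libraries labelled off, *Nov* and *Wisp1* were each called lower than in the pancreas in 1 of the 2 other organs, and *Wisp2* in neither. *Nov* was called lower in the liver than in the pancreas (8.79% of genes were called), with 0.870 to 18.5 CPM in the liver (median 2.86, n = 5) and 11.5 to 40.2 CPM in the pancreas (median 30.5, n = 5). The single overlapping liver value was the paired-end library. The difference was −2.33 ± 0.68 (edgeR adjusted p = 0.0297), and without that library it was −3.48 (adjusted p = 0.000432). The *Nov* call was lost, at adjusted p of 0.0582 to 0.0830, without pancreas replicate 2 of day 7, either pancreas library of day 14, liver replicate 1 of day 7 or any liver library of day 14. *Wisp1* measured 100.4 to 192 CPM in the pancreas (median 104) and 13.6 to 64.8 CPM in the lungs (median 20.0, n = 8), with no overlap. It was called lower in the lungs (18.3% of genes were called), at −2.02 ± 0.57 (adjusted p = 0.0111), and remained so as each of the 18 libraries was left out. In the liver *Wisp1* measured 3.60 to 26.9 CPM in 4 libraries and 135 CPM in the paired-end one; the difference from the pancreas was −1.64 (adjusted p = 0.0921) with that library and −2.79 (adjusted p = 0.00147) without it, and −1.68 (adjusted p = 0.0481) without lung replicate 4 of day 14. *Wisp2* in the pancreas labelled off, 9.19 to 23.1 CPM, overlapped the liver (1.07 to 104 CPM) and the lungs (7.10 to 54.8 CPM), with differences of 0.88 and 0.22 that were not called. Between liver and lungs labelled off, 3.87% of genes were called and no member; *Ctgf* passed the p threshold under a fold of 2 (−0.88, adjusted p = 0.0304), and *Ctgf* (−1.01, adjusted p = 0.0254) and *Nov* (−2.55, adjusted p = 0.0137) were called without the paired-end library.

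**Figure D3:**
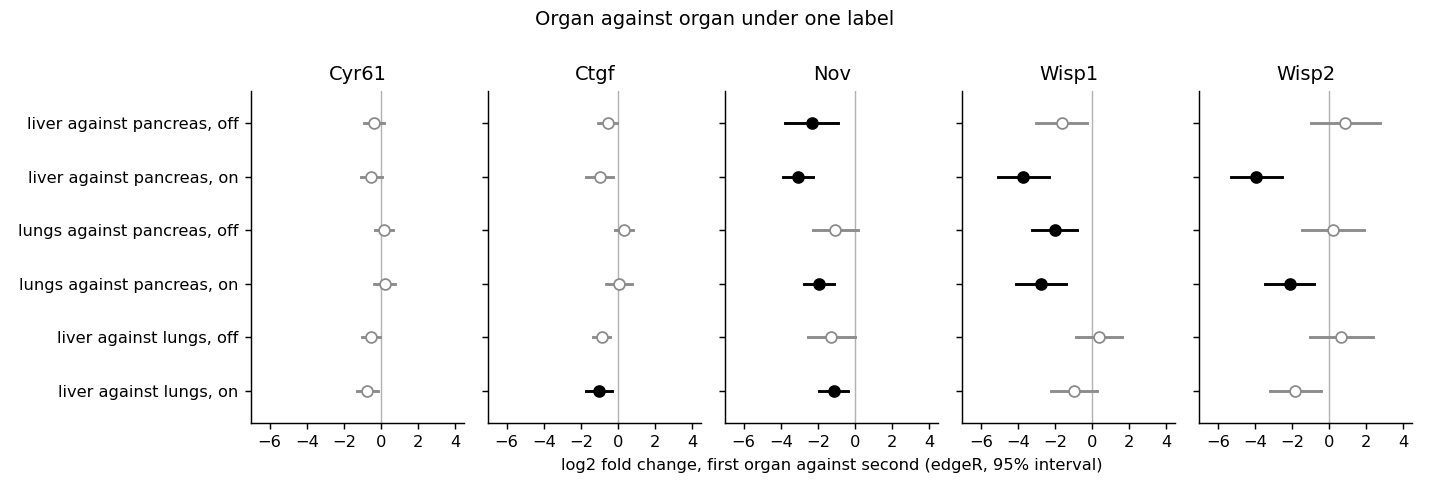
Log2 fold change of each member between organs within one label; points are edgeR estimates, lines 95% intervals, and filled points passed both thresholds. *Nov* and *Wisp1* lie below 0 against the pancreas under both labels, and *Wisp2* does so under the label on (−3.92 in liver, −2.11 in lungs) but not under the label off (0.88 and 0.22).

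The fibroblast marker sum followed the same split between organs. It was 12558 to 17336 CPM in the pancreas labelled off and 9388 to 25803 CPM labelled on, 266 to 36478 CPM (median 1779) and 379 to 3330 CPM (median 828) in the liver, and 170 to 2033 CPM (median 652) and 164 to 1630 CPM (median 418) in the lungs. The acinar markers showed that split more sharply, at 795 to 2769 CPM labelled off and 618 to 1754 CPM labelled on in the pancreas, 4.88 to 313 CPM and 5.89 to 16.9 CPM in the liver, and 5.68 to 12.2 CPM and 2.94 to 13.2 CPM in the lungs. Smooth muscle and pericyte markers stood at 882 to 1206 CPM and 227 to 776 CPM in the pancreas, 23.9 to 616 CPM and 17.1 to 216 CPM in the liver, and 22.8 to 94.4 CPM and 11.3 to 71.0 CPM in the lungs. The part of these 3 lists in the organ differences of *Nov*, *Wisp1* and *Wisp2* was not tested.

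Day made no called difference for any member: 0 of 5 under either label, in fits where edgeR called no gene (1158 genes labelled off and 1196 labelled on had an unadjusted p under 0.05, and DESeq2 called 6 and 11, no member among them). The differences ran from −0.61 to −0.06 labelled off and from −0.50 to 0.37 labelled on.

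The genes around the family were read through lists of regulators, receptors and neighbors. In the pancreas at day 7, where *Wisp2* was higher under the label on, 2 of 20 YAP/TAZ targets other than the members were higher (*Ccdc80*, a matrix protein, 1.24, edgeR adjusted p = 0.00791, and *Fjx1*, 1.56, adjusted p = 0.0383) and 1 was lower (*Ankrd1*, a YAP-responsive ankyrin repeat protein, −1.52, adjusted p = 0.0224). None of 18 Hippo pathway genes and none of 11 genes of the SRF list was called there by edgeR or DESeq2, and the list medians were −0.08 and −0.24 against 0.01 over all genes. Among 14 CCN receptors 1 rose, *Fgfr2* (1.91, adjusted p = 0.0129), and among 9 Wnt targets 1 rose, *Axin2*, the negative feedback scaffold of the pathway (1.23, adjusted p = 0.0189). The median of the 9 Wnt targets was 1.08. Over all genes, 1.33% were called in that comparison. At day 14 *Ankrd1* was again lower (−1.36, edgeR adjusted p = 0.00980), as were the contractile genes *Tagln* (−1.28, adjusted p = 0.0412) and *Acta2* (−1.50, adjusted p = 0.0454) of the SRF list. The Wnt targets *Rnf43* (1.27, edgeR adjusted p = 0.00214) and *Sp5* (1.62, adjusted p = 0.0246) were higher. *Axin2* went the other way at day 14, with 40.2 and 48.6 CPM labelled off and 27.8, 38.4 and 35.7 CPM labelled on.

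In liver and lungs, single organ and day comparisons called 1 gene of these lists by edgeR: *Axl*, a receptor tyrosine kinase and YAP target, lower in the liver at day 7 (−2.66, adjusted p = 0.0477). Over the 25 liver and lung libraries, all 6 fibrogenic genes that the study names beside *Wisp1* were lower too, among them the hyaluronan synthase *Has2* (−2.34), the integrin subunit *Itga5* (−1.40) and the matrix protein *Ccbe1* (−2.99), with a list median of −1.56. The study chose that list on these samples, so it is not independent evidence of the direction. *Itgb3* (−1.83), whose product pairs with the αv subunit to bind several CCN proteins, and *Itga5* were the 2 of 14 receptors lower, and *Fn1* (−1.67) was the 1 of 8 matrix genes lower. Of the 20 YAP/TAZ targets 2 were lower (*Axl*, −1.07, and *Igfbp3*, −1.93). Over all genes, 4.03% were called over these libraries. The values of this paragraph include the paired-end library, 1 of 2 liver libraries labelled off at day 7. They are given with it only, and its part in them was not tested.

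Between liver and pancreas labelled on, the organ comparison with the largest *Nov*, *Wisp1* and *Wisp2* differences, 22.1% of all genes were called, 11.3% lower. The list counts that follow stand beside those shares. All 8 matrix genes were lower (median −3.25, against 0.04 over all genes), including *Dcn* (−4.30), which is also a fibroblast marker. Of 9 Wnt targets 5 were lower and 1 higher: *Axin2* (−2.47), *Lgr5* (−2.62) and *Nkd1* (−2.76) were among the first, and *Rnf43* (1.27) was the last. Of 20 YAP/TAZ targets 6 were lower and 1 higher, with *Igfbp3* at −4.37, *Ccdc80* at −3.37 and *Axl* at −2.01 against *F3* at 1.86, and of 18 Hippo genes 4 were lower, including the coactivator TAZ (*Wwtr1*, −1.81) and *Tead2* (−2.03). Of 14 receptors 5 were lower (*Itgb5*, −1.68; *Itga5*, −1.55) and *Fgfr2* was higher (adjusted p = 0.00184). *Cyr61* and *Ctgf*, the most used YAP/TAZ readouts, were not called in that comparison.

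The members shared their pattern over libraries only in part. Over the 35 libraries, which share hosts, organs and groups and are thus described without a test, Pearson's r of log2 CPM was 0.67 between *Wisp1* and *Wisp2*, 0.65 between *Nov* and *Wisp1*, 0.45 between *Cyr61* and *Ctgf* and 0.31 between *Cyr61* and *Wisp2*. After each group's mean was removed, *Wisp1* and *Wisp2* were at 0.35 and *Cyr61* and *Ctgf* at 0.14, whereas *Ctgf* and *Nov* were at 0.64. Without the paired-end library these were 0.20, 0.07 and 0.65.

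*Nov* followed *Axin2* most closely of all genes (r = 0.909, and 0.880 after removal of group means), followed by *Mfap5* (0.902), a microfibril protein, and *Antxr1* (0.895), a collagen-binding receptor. *Wisp1* was most like *Hs6st2* (0.960), a heparan sulfate sulfotransferase, *Fstl1* (0.958), a secreted glycoprotein, and *Shank3* (0.946). *Wisp2* was most like *Calcoco1* (0.844), *Osr2* (0.813) and *Igfbp4* (0.791). *Ctgf* was nearest to *Arnt2* (0.813) and *Cyr61* to *Pcdhb3* (0.738), neither being a gene of the YAP/TAZ list.

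*Wisp1* also followed the fibroblast marker sum, with r = 0.822 (Spearman's rho 0.819) over the 35 libraries, 0.881 after removal of group means and 0.810 without the paired-end library. The same correlation was 0.640 for *Nov*, 0.535 for *Wisp2*, 0.203 for *Ctgf* and 0.178 for *Cyr61*. After removal of group means these were 0.663, 0.374, 0.296 and 0.417. With the paired-end library also left out they were 0.438, 0.076, 0.215 and 0.264.

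**Figure D4:**
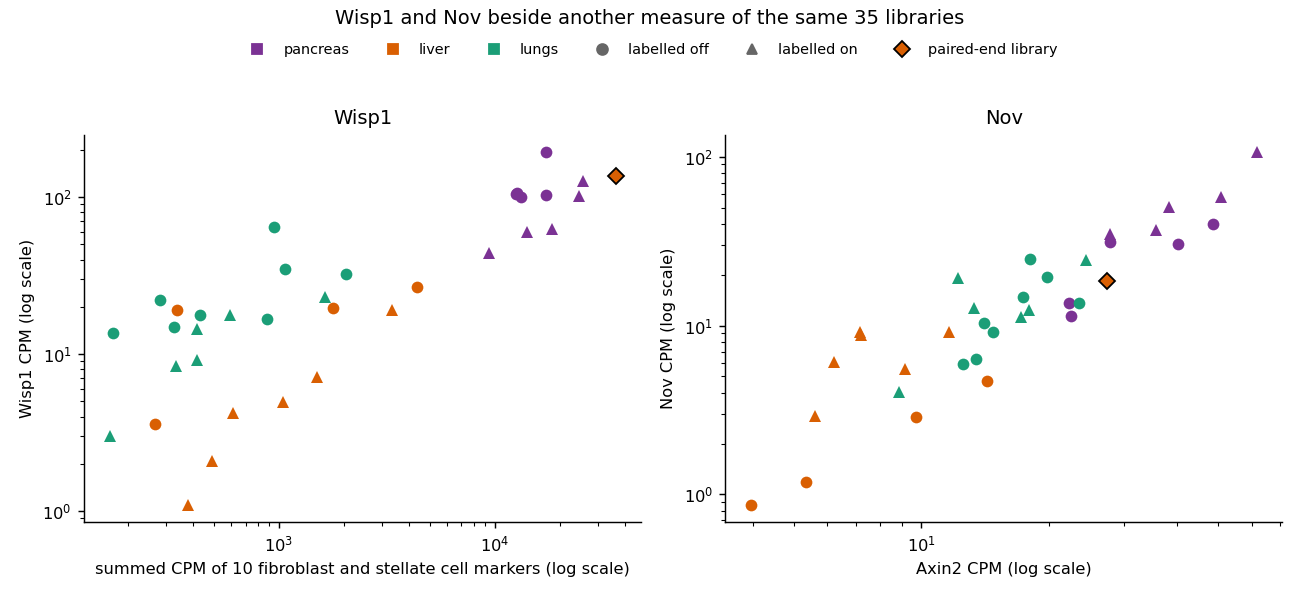
*Wisp1* against the summed level of 10 fibroblast and stellate cell markers (left) and *Nov* against *Axin2* (right), in CPM on log axes, 1 point per library, colored by organ and shaped by label. Pancreas libraries and the paired-end liver library lie at the top right of the *Wisp1* plot (43.9 to 192 CPM), and *Nov* rises with *Axin2* across all 3 organs (r = 0.909, n = 35).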

How the data were processed

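RNA of mKate2-sorted tumor cells from 35 samples was sequenced as 75-bp single-end reads (1 library was labelled paired-end). The authors made the deposited counts, whole reads per gene and not normalized, by trimming with Trimmomatic 0.36, aligning to GRCm38 with STAR 2.5.3a and counting with featureCounts 1.6.3; the strand setting was not given in the sources used here. Columns were matched to the labels with 0 left unmatched, and 0 pairs of libraries were identical. The labels do not say that samples are separate animals, so p-values measure the spread between these samples.

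Genes were filtered with filterByExpr (at least 10 counts, 15 in total), TMM-scaled and fitted with the quasi-likelihood test of edgeR 4.0.16 (limma 3.58.1, R 4.3.3). Label comparisons used the libraries of 1 organ and day, organ and day comparisons all libraries of 1 label, and interactions the libraries of the organs compared at 1 day. Calls needed a fold over 2 and a Benjamini-Hochberg adjusted p under 0.05 over all genes. CPM are TMM-scaled; correlations used log2(CPM + 0.5). Scripts were tested on simulated data. Python 3.11.15 and matplotlib 3.10.9 made tables and figures. Depth was 11885461 to 43571007 counts, and floors of 3 counts cover counting error only.

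The members and the lists were chosen with earlier results of these data known. Named genes were the 5 members, *Smad4*, *Wisp3*, up to 3 called genes of each list and direction by lowest adjusted p, and the 3 genes most like each member. Alternatives were DESeq2 1.42.0 (the tool of the study), its size factors, other filters, a single fit of 12 groups, no fold threshold, a term for 10 libraries that hold *mt-Co3* counts, the replicate number as a block, another pseudocount, and leaving out each library or the paired-end one. Deviations of same-numbered libraries correlated at r = 0.125, 0.121 and 0.549 in the liver at day 14. In the lungs at day 14 they correlated at 0.475, 0.487, 0.551 and 0.517. Differently numbered libraries were not compared. At day 14 the *mt-Co3* libraries also had the same numbers under both labels (3 in the liver, 3 and 4 in the lungs). Pairing therefore cannot be told apart from another factor shared by number. All 10 *mt-Co3* libraries came from the liver or the lungs, the paired-end one among them. In comparisons with the pancreas, that split is thus partly shared with organ. The pooled tests of the label and the pancreas interactions were added after seeing the data. An allele of the cells and a gene of the lists are not reported here.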

Additional observations from a re-analysis of the deposited data

How the results depend on the processing

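Directions kept to the deposited labels, and no alternative changed the side of the threshold for *Nov*, *Wisp1* and *Wisp2* between liver and pancreas labelled on, where DESeq2 gave no adjusted p for *Wisp1* and *Wisp2*. The share of all genes called in the same fit stands after each count. DESeq2 called 2 members in the pancreas (3.58% of genes) and in the liver (17.8%) at day 7, 2 in the interaction of pancreas and liver (8.93%) and 1 in that of pancreas and lungs (1.2%) at day 7. The single fit of 12 groups called 0 members in the pancreas on either day (0.239% and 0.0912%), 2 in the liver at day 7 (17.6%), 1 between liver and lungs labelled on (10.9%), 1 in the interaction of pancreas and liver at day 7 (5.08%) and 2 over liver and lungs (7.61%). With no fold threshold, 2 members were called in the pancreas at day 14 (12.9%) and 1 between liver and lungs labelled off (5.72%). With no filter, 0 were called between liver and pancreas labelled off (3.52%), between liver and lungs labelled on (4.64%) and over liver and lungs (1.56%). The covariate for *mt-Co3* libraries gave 2 between liver and pancreas labelled off (11%) and 2 over liver and lungs (4.82%), and turned *Cyr61* (0.065) and *Nov* (0.70) in the liver and *Nov* (0.035) in the lungs at day 7, and *Wisp2* between lungs and pancreas labelled off (−0.43). Without the paired-end library, 2 were called between liver and pancreas (15.9%) and between liver and lungs (4.32%) labelled off, 1 in the interaction of pancreas and liver at day 7 (1.29%) and 0 over liver and lungs (2.81%); *Wisp2* turned between liver and pancreas (−0.70) and liver and lungs (−0.81) labelled off and in the interaction of liver and lungs at day 7 (0.94), as did *Wisp1* between liver and lungs labelled off (−0.65). The cause of these changes was not tested.

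With the replicate number as a block, 0 members and 0 genes were called in the pancreas at day 7, *Wisp1* there was 0.13, *Cyr61* and *Nov* in the liver at day 7 were 0.0031 and 0.84, and *Wisp1* in the interaction of pancreas and lungs at day 14 was −0.18; the block changed no other call of a member. Apart from this block, no fit took the numbers as pairs, and this holds for the liver and lungs at day 14 as well. Elsewhere same-numbered libraries correlated at −0.0880 and −0.166 (pancreas day 7), 0.311 and −0.304 (liver day 7), 0.338 and −0.307 (lungs day 7) and 0.0425 and 0.0267 (pancreas day 14).

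As each library was left out, the members called ranged from 0 to 2 in the pancreas (0.153% to 1.14% of genes) and the liver (0% to 19.8%) at day 7, from 0 to 1 in the pancreas at day 14 (1.43% to 6.75%), from 0 to 2 between liver and pancreas (4.28% to 15.9%) and between liver and lungs (2.89% to 5.03%) labelled off and from 0 to 3 between liver and lungs labelled on (8.62% to 11.6%). In the day 7 interactions they ranged from 0 to 1 for liver and lungs (0% to 13%), 0 to 3 for pancreas and liver (0% to 18.7%) and 0 to 1 for pancreas and lungs (0% to 1.23%). Differences that turned sign were *Cyr61* (−0.10 to 0.35) and *Wisp1* (−0.39 to 0.13) in the pancreas at day 7, *Cyr61* (−0.46 to 0.50) and *Nov* (−1.22 to 2.66) in the liver at day 7, and *Cyr61* (−1.03 to 0.50), *Ctgf* (−1.82 to 0.11) and *Nov* (−1.91 to 0.62) in the lungs at day 7. At day 14 they were *Wisp2* in the liver (−2.86 to 0.57) and *Cyr61* (−0.29 to 0.047), *Ctgf* (−0.20 to 0.16) and *Wisp2* (−1.60 to 0.63) in the lungs. Between organs labelled off they were *Wisp2* (−0.70 to 1.27) for liver and pancreas, *Wisp2* (−0.36 to 0.45) for lungs and pancreas, and *Wisp1* (−0.65 to 0.81) and *Wisp2* (−0.81 to 1.15) for liver and lungs, and labelled on, *Ctgf* (−0.20 to 0.22) for lungs and pancreas. In the interactions they were *Wisp2* in liver and lungs at day 7 (−2.98 to 0.94), *Wisp1* (−1.69 to 0.48) and *Wisp2* (−2.94 to 0.92) in liver and lungs at day 14, and *Wisp1* at day 14 in pancreas and liver (−0.37 to 1.78) and pancreas and lungs (−0.68 to 0.44).

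The pooled tests were chosen after seeing the data and were not repeated with the block or with each library left out. DESeq2 gave no adjusted p for *Wisp1* and *Wisp2* in several organ comparisons, which have no DESeq2 verdict. With 2 to 4 libraries a group, differences under the printed intervals were not detectable.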
